A study of Homo sapiens with 9 samples.

Results

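The RNAs described here are the 192 long noncoding RNAs with a LINC symbol (LINC followed by digits, with no suffix) that were counted at an appreciable level in the triple-negative breast cancer line MDA-MB-231, which is of human origin. They were selected on the deposited count table, as rows with such a symbol whose counts sum to at least 90 over the 9 libraries. The table lists 60612 genes and 2133 such LINC rows, of which 1277 had no count in any library. Libraries were made 48 hours after cells received a negative control siRNA (control), an siRNA labelled MILIP siRNA1 (siRNA1) or one labelled MILIP siRNA2 (siRNA2), with 3 libraries per group. All groups were cells of the same line, transfected with a lipid reagent. The study asked what changes when the long noncoding RNA MILIP (gene symbol MAFG-DT) is depleted. The treatment labels and the title name MILIP as the target, whereas the protocol text of the samples speaks of siRNAs against another transcript, PLANE. Nothing in the labels states that replicate libraries are independent cultures, and p-values therefore reflect the spread between the libraries at hand, which may be technical.

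Long intergenic noncoding RNAs are transcribed by RNA polymerase II from their own start sites, are usually capped and often spliced, and carry no long conserved reading frame. Most are kept at low levels because nuclear surveillance, led by the RNA exosome and its adaptor complexes, removes many of them soon after transcription, and a minority act in chromatin, in the cytoplasm or as a source of small peptides. A LINC symbol is a serial number given to a transcript without a known function, so that sharing it implies no common pathway; several members have since been renamed after a neighbouring gene or a reported function, for example CHASERR (LINC01578), SLC12A2-DT (LINC01184) and NIHCOLE (LINC02163).

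MILIP itself, the gene named by the labels, was measured at 8.4 ± 0.254 CPM (counts per 1000000 counts of a library, TMM-scaled) in controls, 1.24 ± 0.641 CPM after siRNA1 and 0.615 ± 0.315 CPM after siRNA2 (SD, n = 3 each). Both differences passed the quasi-likelihood test of edgeR, adjusted by Benjamini and Hochberg's method (adjusted p = 5.17e-10 and 7.10e-12), and the exact two-sided permutation test of 3 against 3 libraries gave its smallest possible p of 0.1 in each case. Total counts ranged from 15281220 to 19759371 per library, so that 3 counts, the upper limit that a count of 0 allows, correspond to 0.1518 to 0.1963 CPM (counting error only). VIM, CD44 and AXL, markers of the mesenchymal-like state of this line, were all present. Together they summed to 6398 to 6809 CPM in controls, 5135 to 5491 CPM after siRNA1 and 5246 to 5317 CPM after siRNA2. CD3E and MS4A1 of the leukocyte list were at 0 in every library. The summed level of 5 epithelial markers was 1058 to 1228 CPM in controls, 1945 to 2252 CPM after siRNA1 and 1215 to 1255 CPM after siRNA2. That of 5 fibroblast markers, 3 of them above 1 CPM, was 8.08 to 11.3, 48.6 to 57.6 and 68.5 to 72 CPM. Endothelial markers, 2 of 4 above 1 CPM, summed to 8.77 to 11.1, 5.78 to 7.08 and 18.4 to 20.4 CPM. The 6 leukocyte markers, 1 of them above 1 CPM, summed to 1.73 to 2.82, 0.729 to 2.26 and 8.16 to 9.02 CPM. The part of these marker shifts in the changes of LINC RNAs was not tested.

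The 192 RNAs were a low-abundance set. Their counts over 9 libraries had a median of 268, an interquartile range of 151.25 to 668.5 and a maximum of 8259, for LINC00472. All 192 passed the filter on low counts and were tested among 15345 genes; 126 of them had at least 10 counts in every library, and 2 reached 10 counts only in libraries of 1 group. Just outside the threshold lay LINC01001 and LINC01792 with 87 counts and LINC01546 and LINC02669 with 88, and just inside it LINC01529 and LINC02015 with 90 and LINC00622 and LINC01589 with 91. GENCODE v29 types 149 of them as lincRNA, 15 as processed transcripts and 13 as antisense, and 2, LINC02693 and LINC00672, as protein-coding. A further 7, among them LINC00674 and LINC00888, are typed as transcribed unprocessed pseudogenes, and LINC02210 as a transcribed unitary pseudogene. Chromosome 1 carried the most, 29. The median exonic length was 3570 bases (436 to 33198), the median longest transcript had 3 exons, and 31 members had a single exon. A gene with at least 90 counts on the opposite strand overlapped 53 members, and one on the same strand 14. Overlaps with genes of fewer counts were not included. The sources used here do not say whether counting used strand, and reads of such partners cannot be told apart. For 10 members at least 50% of the longest transcript matched transcripts of a gene elsewhere at 98% identity or more, among them LINC00115 (91.0%), LINC00623, LINC00869, LINC01123, LINC01145 and LINC01409, and their counts are uncertain for that reason.

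On the length-corrected scale of the deposited FPKM values, 54 members had a mean of at least 1 FPKM and the median member 0.507 FPKM. LINC00973 was the most abundant, at 24.6 ± 1.31 FPKM in controls, and its range there did not overlap that of the next member. LINC01116 (8.98 ± 0.648 FPKM), LINC00674 (8.96 ± 3.31), LINC00888 (7.18 ± 0.263), LINC01605 (6.24 ± 0.969) and LINC00857 (4.98 ± 0.236) followed in controls. Each of these overlapped in range with its neighbour in that order, and so did the further members down to LINC00601, the 15th in controls (2.99 ± 0.581 FPKM). LINC01139, studied in triple-negative breast cancer under the name LINK-A, stood at 3.64 ± 0.268 FPKM. The order changed with the siRNAs: LINC00601 reached 10.9 ± 0.835 FPKM after siRNA1 and 1.98 ± 0.112 FPKM after siRNA2, and LINC01116 reached 4.84 ± 0.579 and 10.8 ± 0.77 FPKM. The 3 members with the most counts held 16.9% and the top 12 held 37.5% of all 122840 member counts.

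With siRNA1 more LINC RNAs rose than fell. Against control 55 of 192 rose and 20 fell (adjusted p below 0.05), that is 28.6% and 10.4% of members, where 25.1% and 25.4% of all 15345 tested genes did so. With siRNA2 the numbers were closer to each other: 31 rose and 28 fell, 16.1% and 14.6% of members beside 27.2% and 28.9% of all tested genes. Set directly against siRNA1, 32 members were higher after siRNA2 and 56 lower, beside 28.4% and 32.1% of all tested genes. Members had far fewer counts than the typical tested gene (median totals 268 and 3085), which limits how many can pass. The 1587 other long noncoding genes, with a median total of 203, rose in 15.8% and fell in 11.7% after siRNA1, and rose in 14% and fell in 14.7% after siRNA2. The difference between members and these genes was not tested. The median log2 fold change of members was 0.21 after siRNA1 and 0.10 after siRNA2, beside 0.00 and -0.01 over all tested genes and 0.04 and -0.01 over the other long noncoding genes.

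**Figure D1:**
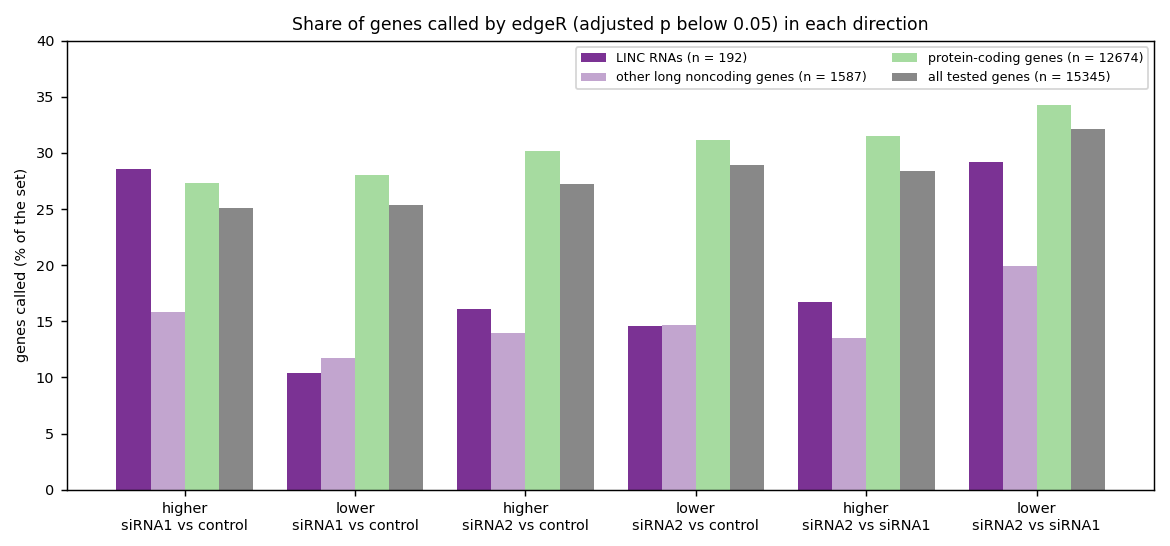
Share of genes called by edgeR at an adjusted p below 0.05 (y axis, % of each set) in each direction of the 3 comparisons (x axis), for the 192 LINC RNAs, 1587 other long noncoding genes, 12674 protein-coding genes and all 15345 tested genes. For LINC RNAs the bar for a rise after siRNA1 (28.6%) stands above the bar for a fall (10.4%), while the bars after siRNA2 are 16.1% and 14.6%.

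Most called members were separated library by library: in 53 of the 55 that rose after siRNA1 and 19 of the 20 that fell, all 3 siRNA1 libraries lay on 1 side of all 3 control libraries, and after siRNA2 the numbers were 29 of 31 and 25 of 28. Called changes of at least 2-fold numbered 28 up and 5 down after siRNA1 (14.6% and 2.6% of members, beside 5.58% and 4.26% of all tested genes and 8.44% and 4.85% of the other long noncoding genes) and 16 up and 9 down after siRNA2 (8.33% and 4.69%, beside 6.07% and 4.82%, and 6.36% and 6.05%). The rule on counts takes part in this, since 28 members had fewer than 30 counts over the 3 controls, under what the rule asks of 3 libraries on average, and could enter only through higher counts with an siRNA; 12 of them rose and 0 fell after siRNA1, and 9 rose and 0 fell after siRNA2. As a share of all gene counts, the members took 0.0736% ± 0.00126 in controls, 0.0891% ± 0.00155 after siRNA1 and 0.0717% ± 0.000929 after siRNA2 (SD, n = 3 each). The siRNA1 libraries (0.088% to 0.0909%) lay above all others, and those of control (0.0727% to 0.0751%) and siRNA2 (0.0711% to 0.0728%) overlapped. LINC00472 was the largest single contributor, and without it the shares were 0.0698%, 0.0811% and 0.0679%. Among the 103 members with fewer than 300 counts, 20 rose and 7 fell after siRNA1 (19.4% and 6.8%) and 15 rose and 6 fell after siRNA2 (14.6% and 5.83%). Among the 89 with more counts 35 rose and 13 fell (39.3% and 14.6%), and 16 rose and 22 fell (18% and 24.7%). Of all tested genes, with a median of 3085 counts, 25.1% rose and 25.4% fell after siRNA1, and 27.2% and 28.9% after siRNA2.

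Both siRNAs share the control libraries, so the 2 comparisons are not independent. Side by side, 17 members rose with both (8.85%, beside 11.8% of all tested genes), 6 fell with both (3.12%, beside 11.1%), and 7 moved in opposite directions (3.65%, beside 9.93%). Another 32 rose and 13 fell after siRNA1 alone passing the test, 13 rose and 16 fell after siRNA2 alone passing, and 88 passed with neither. The matching shares of all tested genes were not counted, so these numbers are not read as a trait of the members.

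**Figure D2:**
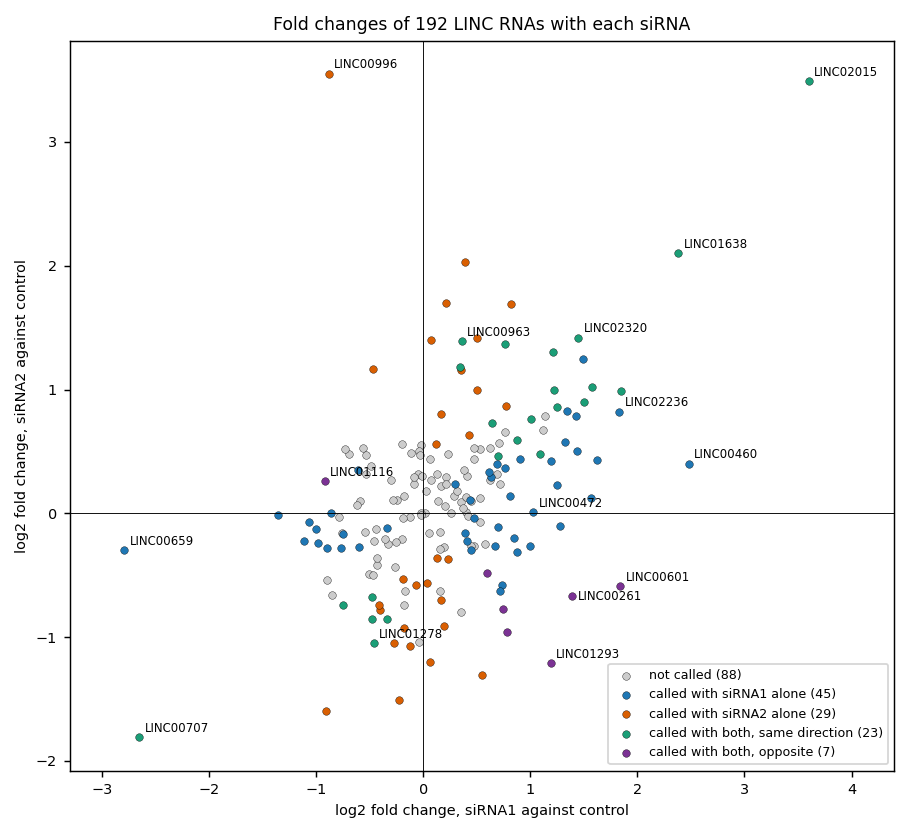
Log2 fold change against control after siRNA1 (x axis) and siRNA2 (y axis) of the 192 LINC RNAs, 1 point each, coloured by which comparison passed the test. LINC02015 and LINC01638 lie far to the upper right, LINC00707 to the lower left, LINC00460 and LINC00659 along the horizontal axis, LINC00996 at the top, and LINC00261, LINC00601 and LINC01293 in the lower right, where siRNA1 and siRNA2 differ in sign.

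The members that fell with both siRNAs were LINC00707, LINC01278, LINC01128, LINC02693, LINC00665 and LINC00630. LINC00707 (chromosome 10, 6779549 to 6879450, plus strand, GRCh38), which has been studied in several carcinomas, had the largest change of them. Its level was 7.15, 6.99 and 5.22 CPM in controls, 1.26, 1.01 and 0.82 CPM after siRNA1 and 1.71, 2.08 and 1.69 CPM after siRNA2. No library of either siRNA came near the control range, and all siRNA2 libraries lay above all siRNA1 libraries. The direct difference between the siRNAs was 0.84 on the log2 scale (SE 0.271, adjusted p = 0.00881), and this call was lost without siRNA1 replicate 3 (adjusted p = 0.0528). LINC02693 (chromosome 17, 21428263 to 21574517, minus strand) was measured at 53.8, 57.8 and 50.6 CPM in controls, 42.3, 42.7 and 43 CPM after siRNA1 and 30.1, 30 and 29.5 CPM after siRNA2. The 3 groups followed in that order without overlap. LINC01278 (chromosome X, 63222993 to 63561095, minus strand), which overlaps SPIN4 on the same strand, went from 12.7 ± 1.26 CPM to 9.23 ± 0.437 CPM after siRNA1 (log2 fold change -0.46, adjusted p = 0.00181) and to 6.15 ± 0.155 CPM after siRNA2 (-1.05, adjusted p = 3.22e-08). LINC01128 followed the same order, with 21.8 ± 1.08, 15.6 ± 0.678 and 12.1 ± 1.03 CPM. LINC00665, studied as a driver of growth in breast cancer cells, stood at 14.5 ± 2.18, 10.5 ± 0.76 and 9.09 ± 0.841 CPM, with no call between the siRNAs (adjusted p = 0.181). LINC00630 passed with both siRNAs (3.59 ± 1.07, 2.1 ± 0.45 and 2.12 ± 0.731 CPM), although its libraries overlapped. Its siRNA1 call was lost without control replicate 1, control replicate 2 or siRNA1 replicate 1 (adjusted p 0.0789 to 0.0922). Its siRNA2 call was lost without control replicate 1 or 2 or siRNA2 replicate 2 or 3 (0.0615 to 0.101).

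**Figure D3:**
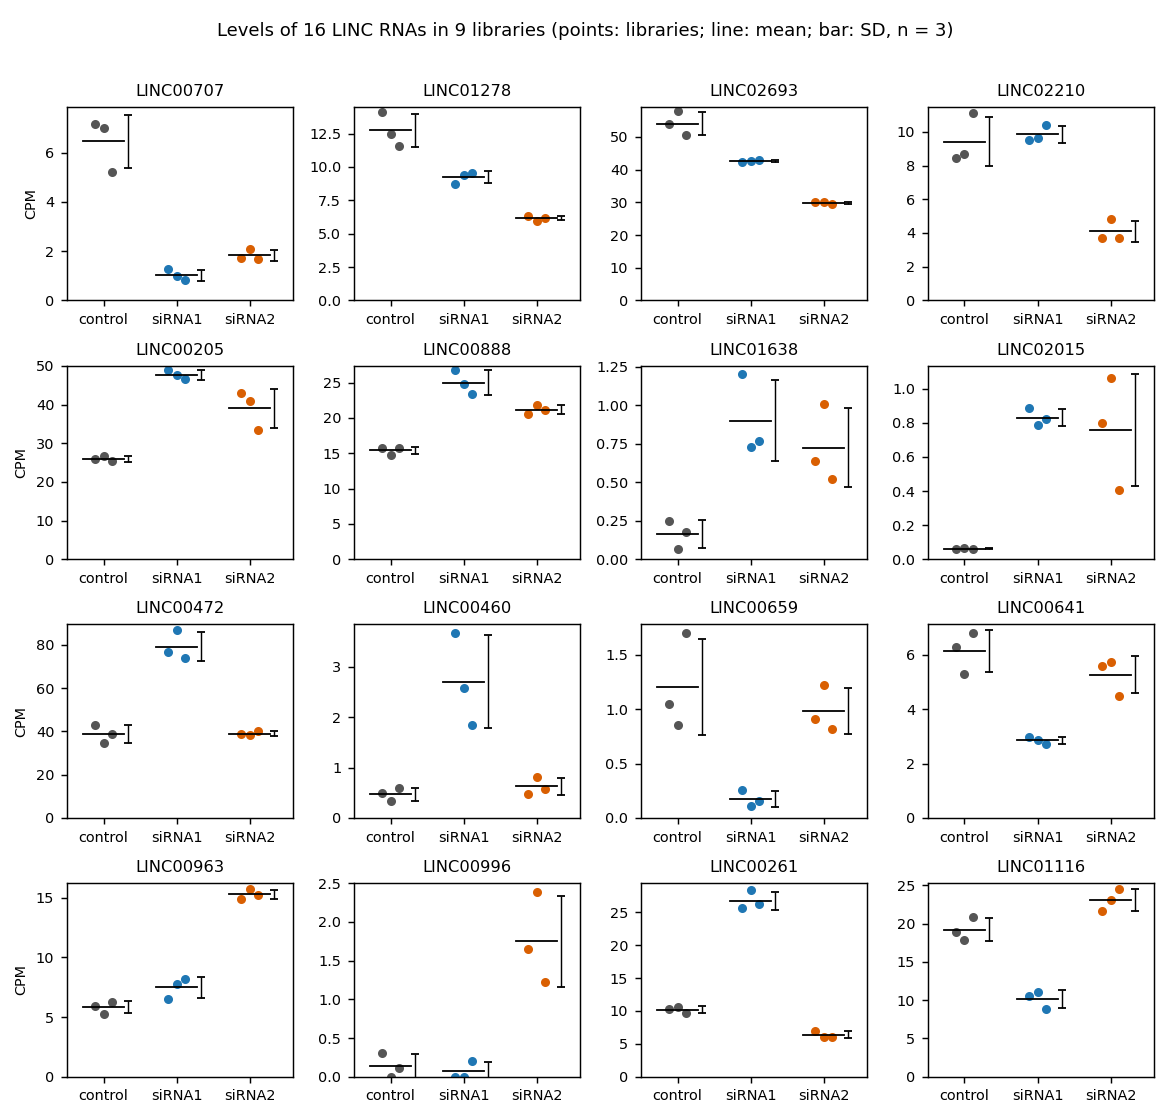
Level in CPM (y axis, from 0) of 16 LINC RNAs in the 3 control, 3 siRNA1 and 3 siRNA2 libraries (x axis), with points for libraries, a line for the mean and a bar for the SD. The top row shows falls with both siRNAs for the first 3 RNAs and after siRNA2 for LINC02210, the second row rises with both, the third row changes after siRNA1, and the bottom row shows LINC00963, LINC00996 and the opposite moves of LINC00261 and LINC01116.

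Short sequence words were shared by several of these RNAs. In earlier results of these data the words AATTCCA and ATTCCAA had been linked to lower mRNA levels after siRNA1, and GACCCTA and ACCCTAA to lower mRNA levels after siRNA2. LINC00707 holds 5 distinct positions of the siRNA1 words in exon 5 of a transcript with 5 exons, and 2 positions of the siRNA2 words. LINC01278 holds 6 and 3 positions in a single-exon transcript of 5053 bases, LINC01128 3 and 2, LINC02693 3 and 2, and MILIP 2 and 1. LINC00665 holds 1 of each, whereas LINC00630, which also fell with both siRNAs, holds neither kind. Members that rose hold them too. LINC00963, which rose with both siRNAs, holds 1 position of each kind. So do LINC00261 and LINC00702, which rose after siRNA1 and fell after siRNA2. The sequences below are read from GENCODE v29 transcripts (GRCh38), 5′ to 3′ on the gene's strand, with the word in capitals and 11 bases on each side, and are shown because LINC00707 and LINC01278 fell with both siRNAs. In LINC00707 (plus strand) the words lie at chr10:6841091-6841097, chr10:6842486-6842492, chr10:6842726-6842732, chr10:6842656-6842662 and chr10:6789350-6789356, in that order. Those of LINC01278 (minus strand) are at chrX:63430364-63430370 and chrX:63431270-63431276, and those of MILIP (plus strand) at chr17:81930360-81930366 and chr17:81930484-81930490.
LINC00707, siRNA1 word a: agcactggatcAATTCCAattaagagttt
LINC00707, siRNA1 word b: ggaatgaggacATTCCAAcagggtatcag
LINC00707, siRNA1 word c: cgaccagagacATTCCAAacccgcagtaa
LINC00707, siRNA2 word a: gaaacattccaACCCTAAgataaacaccc
LINC00707, siRNA2 word b: tcataggtggaGACCCTAgaaaacctcca
LINC01278, siRNA1 word: acatttacaccAATTCCAaatatgcatac
LINC01278, siRNA2 word: accttggactcACCCTAAcccctaattct
MILIP, siRNA1 word: ggagtcagggcAATTCCAaccaagaaact
MILIP, siRNA2 word: ggtaacatagaGACCCTAtcgctacaaga
No siRNA sequence was compared with them, and a word is a match of letters only.

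Over all members, 66 held a siRNA1 word and 41 a siRNA2 word in at least 1 listed transcript, and 21 held both kinds. Of the 66, 16 rose and 10 fell after siRNA1 (15.2% fell, median log2 fold change 0.17), and of the 126 without the word 39 rose and 10 fell (7.94%, median 0.23). Of the 41 with a siRNA2 word, 9 rose and 10 fell after siRNA2 (24.4%, median 0.07), and of the 151 without it 22 rose and 18 fell (11.9%, median 0.10). The pattern was not limited to the matching siRNA: 21.2% of members with a siRNA1 word fell after siRNA2, beside 11.1% without, and 19.5% of members with a siRNA2 word fell after siRNA1, beside 7.95% without. Members with a word were longer (median longest transcript 2760 against 1792 bases for the siRNA1 words). Among members above the median length of 2109 bases, 13 rose and 9 fell after siRNA1 of 46 with a siRNA1 word, and 19 rose and 3 fell of 50 without it, while 8 rose and 10 fell after siRNA2 of 29 with a siRNA2 word, and 6 rose and 7 fell of 67 without it. Shorter members went the other way: 1 of 20 with a siRNA1 word fell after siRNA1 (5%) beside 7 of 76 without it (9.21%), and 0 of 12 with a siRNA2 word fell after siRNA2 beside 11 of 84 without it. These counts are a description, and the words were chosen from these same libraries. In the other long noncoding genes the shares that fell were 14.3% with a siRNA1 word and 10.6% without it for siRNA1, and 20.4% and 13.8% for the siRNA2 words and siRNA2.

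**Figure D4:**
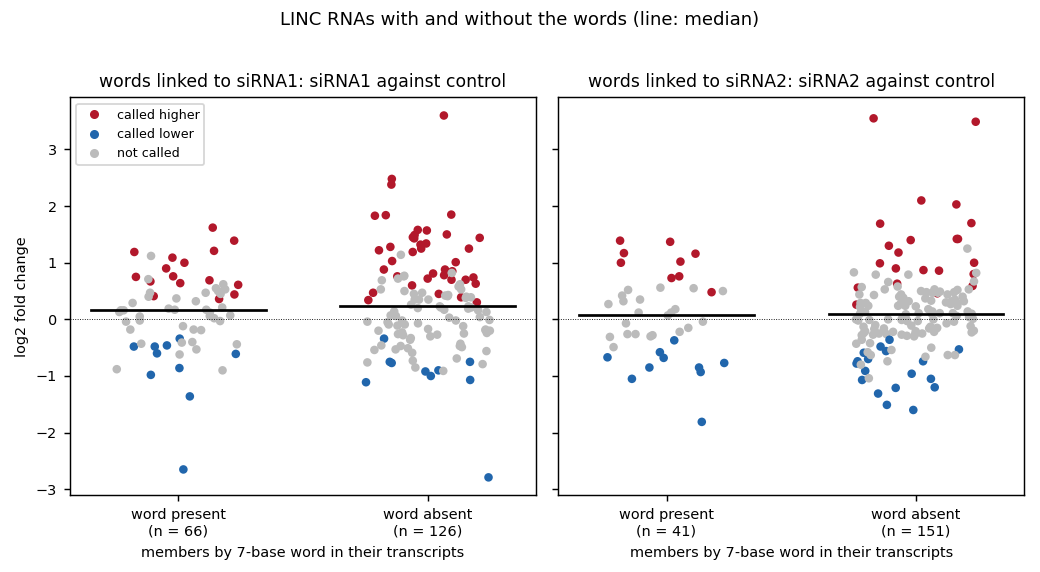
Log2 fold change (y axis) of the LINC RNAs with and without a 7-base word (x axis), for the siRNA1 words after siRNA1 (left) and the siRNA2 words after siRNA2 (right), 1 point per RNA, coloured by call, with the median as a line. The medians lie close together (0.17 and 0.23 on the left, 0.07 and 0.10 on the right), and 10 members with a word fell in each panel.

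LINC02015 and LINC01638 rose with both siRNAs from levels near the detection limit. Their counts over the 9 libraries, 90 and 96, include only 3 and 8 control counts, so that both reached the 90-count rule through the libraries in which they were high, and their rise is given as a description. LINC02015 (chromosome 3, 177816865 to 177899224, plus strand) had 1 count in each control library (0.0617, 0.066 and 0.0587 CPM), 14, 14 and 16 counts after siRNA1 (0.885, 0.785 and 0.82 CPM) and 15, 21 and 7 counts after siRNA2 (0.8, 1.06 and 0.407 CPM). With 3 control counts in all, the ratio to control was 13.4 after siRNA1 (95% counting interval 4.28 to 67.3) and 12.5 after siRNA2 (3.99 to 62.8). LINC01638 (chromosome 22, 27221349 to 27225134, minus strand), reported to maintain mesenchymal features of triple-negative breast cancer cells, had 4, 1 and 3 counts in controls, 19, 13 and 15 after siRNA1 and 12, 20 and 9 after siRNA2. Its ratios were 5.35 (2.51 to 13.1) and 4.46 (2.06 to 11), and no library of either siRNA overlapped the controls in CPM.

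Among better counted members, LINC00205 and LINC00888 rose with both. LINC00205 (chromosome 21, 45288050 to 45297806, plus strand) was measured at 25.8, 26.8 and 25.3 CPM in controls, 48.9, 47.6 and 46.5 CPM after siRNA1 and 42.9, 40.8 and 33.3 CPM after siRNA2. Each siRNA library was above every control library. The log2 fold changes were 0.88 (SE 0.0879, adjusted p = 2.21e-09) and 0.59 (SE 0.0885, adjusted p = 1.91e-06). LINC00888 stood at 15.4 ± 0.534, 25 ± 1.73 and 21.1 ± 0.612 CPM (SD, n = 3 each). LINC02870 went from 1.9 ± 0.198 to 5.4 ± 0.387 and 3.56 ± 0.436 CPM, LINC00884 from 0.96 ± 0.259 to 2.87 ± 0.322 and 1.94 ± 0.115 CPM, and LINC01303 from 0.512 ± 0.126 to 1.2 ± 0.0784 and 1.28 ± 0.188 CPM. LINC00884 overlaps ATP13A3 on the opposite strand, which moved the other way after siRNA1 (201 ± 23.2 to 118 ± 9.82 CPM). LINC00239 and LINC02320, which overlap each other on opposite strands of chromosome 14, both rose with both siRNAs, but their reads cannot be told apart. The siRNA2 call of LINC00239 was lost without siRNA2 replicate 3 (adjusted p = 0.0503), and those of LINC02320 were lost for siRNA1 without control replicate 3 or siRNA1 replicate 2 or 3 (0.058 to 0.0821) and for siRNA2 without control replicate 3 or siRNA2 replicate 3 (0.0768 and 0.0556). LINC01503, reported as enhancer-driven in squamous cancers, rose after siRNA1 (0.587 ± 0.315 to 2.17 ± 0.309 CPM). Its siRNA2 call (1.19 ± 0.33 CPM, adjusted p = 0.0324) was lost without control replicate 1 or 2 or siRNA2 replicate 2 or 3 (0.0663 to 0.146). LINC01303, LINC02320 and LINC01503 had only 25, 16 and 29 control counts, and their rises are given as a description.

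LINC00963, studied in prostate cancer, rose mainly after siRNA2. It was measured at 5.92, 5.28 and 6.28 CPM in controls, 6.51, 7.8 and 8.15 CPM after siRNA1 and 14.9, 15.7 and 15.2 CPM after siRNA2. The siRNA2 libraries stood apart from all others (log2 fold change 1.39 against control, adjusted p = 1.86e-10, and 1.02 against siRNA1, adjusted p = 1.93e-08). Its siRNA1 call (adjusted p = 0.0262) was lost without control replicate 1 or 2 or siRNA1 replicate 2 or 3 (0.0536 to 0.12).

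LINC00472 carried the most reads of any member and changed after siRNA1. Reported as a tumour suppressor transcript in breast cancer (chromosome 6, 71343427 to 71420745, minus strand), it was measured at 43.1, 34.6 and 38.6 CPM in controls, 76.7, 86.9 and 74.1 CPM after siRNA1 and 38.8, 38.2 and 40.1 CPM after siRNA2. The siRNA1 libraries lay above all others and the siRNA2 libraries inside the control range. On the log2 scale the change was 1.03 (SE 0.0814, adjusted p = 1.89e-11) after siRNA1, 0.01 (adjusted p = 0.947) after siRNA2 and -1.02 (adjusted p = 8.88e-12) between them. LINC00460 (chromosome 13, 106374477 to 106384315, plus strand), reported to promote migration in several carcinomas, had 8, 5 and 10 counts in controls, 58, 46 and 36 after siRNA1 and 9, 16 and 10 after siRNA2. In CPM these were 0.493, 0.33 and 0.587, then 3.67, 2.58 and 1.85, then 0.48, 0.811 and 0.582. Only the siRNA1 libraries stood apart (log2 fold change 2.48, adjusted p = 2.25e-06, and -2.08 for siRNA2 against siRNA1, adjusted p = 5.98e-06). LINC02236 rose from 0.596 ± 0.241 to 2.14 ± 0.116 CPM after siRNA1, and LINC01270 from 1.16 ± 0.496 to 3.56 ± 0.186 CPM. With siRNA2 their values were 1.06 ± 0.153 CPM (adjusted p = 0.0623) and 1.56 ± 0.156 CPM (adjusted p = 0.22). LINC00460 and LINC02236 had 58 and 88 counts outside the siRNA1 libraries, and met the rule on counts only through the siRNA1 libraries. Their higher levels after siRNA1, with the adjusted p-values given for LINC00460, are likewise a description.

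LINC00659 had the largest fall after siRNA1. Its counts were 17, 13 and 29 in controls, 4, 2 and 3 after siRNA1 and 17, 24 and 14 after siRNA2 (chromosome 20, 62774121 to 62776996, minus strand). The siRNA1 to control ratio was 0.139 (95% counting interval 0.0606 to 0.282), and the control and siRNA2 libraries overlapped. LINC00641 fell from 6.12 ± 0.779 to 2.85 ± 0.128 CPM after siRNA1, LINC02035 from 4.54 ± 0.806 to 2.29 ± 0.25 CPM, LINC00997 from 1.85 ± 0.826 to 0.732 ± 0.255 CPM, and LINC01605 from 9.55 ± 1.45 to 5.6 ± 0.727 CPM. All 4 were higher after siRNA2 than after siRNA1 in the direct comparison (adjusted p 7.17e-05, 0.00241, 0.00176 and 0.00672), of which that of LINC01605 was lost without siRNA2 replicate 1 (0.0738).

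LINC00996, one of the 2 members that reached 10 counts only in libraries of 1 group (the other is LINC01589), entered the set through its 99 counts after siRNA2, beside 11 in the other 6 libraries, so that its rise is given as a description. It had 5, 0 and 2 counts in controls, 0, 0 and 4 after siRNA1 and 31, 47 and 21 after siRNA2 (1.65, 2.38 and 1.22 CPM; chromosome 7, 150433654 to 150448140, plus strand). The ratio of siRNA2 to control was 12.3 (95% counting interval 5.75 to 31.4) and to siRNA1 23.6 (8.94 to 88.4). LINC02392 rose from 0.46 ± 0.2 to 1.87 ± 0.884 CPM after siRNA2, LINC01411 from 1.03 ± 0.0315 to 2.74 ± 0.168 CPM, LINC02783 from 1.21 ± 0.379 to 2.72 ± 0.415 CPM and LINC00880 from 0.925 ± 0.456 to 2.46 ± 0.43 CPM. Each of these 4 was also higher after siRNA2 than after siRNA1 (adjusted p 8.21e-05, 3.42e-05 and 0.00792 for LINC01411, LINC02783 and LINC00880). LINC01589 rose from 0.307 ± 0.0902 to 1.02 ± 0.548 CPM. It had 31 counts in siRNA2 replicate 1 and 14 and 12 in the others, and the call was lost without replicate 1 (adjusted p = 0.0805). LINC02392 and LINC01589 had only 54 and 34 counts outside the siRNA2 libraries. Both met the rule on counts only through the siRNA2 libraries, and their higher levels after siRNA2 are likewise a description.

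LINC02210 and LINC01806 fell after siRNA2 and did not pass after siRNA1. LINC02210 (chromosome 17, 45620328 to 45655156, plus strand), which lies in the locus next to the stress hormone receptor gene CRHR1, was measured at 8.45, 8.71 and 11.1 CPM in controls, 9.49, 9.65 and 10.4 CPM after siRNA1 and 3.73, 4.82 and 3.72 CPM after siRNA2. The siRNA2 libraries lay below all others, and the direct difference from siRNA1 was -1.26 on the log2 scale (adjusted p = 2.40e-08). LINC01806 stood at 11.2 ± 1.99, 12.8 ± 0.581 and 6 ± 0.357 CPM, with a direct difference of -1.10 (adjusted p = 3.44e-08). LINC00973, the most abundant member per length, went from 23.8 ± 1.39 to 20.9 ± 1.03 CPM after siRNA1 (adjusted p = 0.106) and to 16.5 ± 1.52 CPM after siRNA2 (log2 fold change -0.53, adjusted p = 3.75e-05). LINC01852 fell from 1.5 ± 0.415 to 0.502 ± 0.361 CPM after siRNA2. LINC00526 and LINC02043 fell from 0.989 ± 0.283 to 0.397 ± 0.0731 CPM and from 1.91 ± 0.343 to 0.915 ± 0.336 CPM. The call of LINC00526 was lost without control replicate 3 (adjusted p = 0.054), and that of LINC02043 without control replicate 2 (0.0565) or siRNA2 replicate 1 (0.0698).

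In all, 7 members moved in opposite directions with the siRNAs: LINC00261, LINC00601, LINC01293, LINC01291, LINC00702, LINC00847 and LINC01116. LINC00261 (chromosome 20, 22547671 to 22578642, minus strand), a transcript next to the endoderm factor gene FOXA2, was measured at 10.3, 10.6 and 9.62 CPM in controls, 25.6, 28.3 and 26.2 CPM after siRNA1 and 6.99, 6.08 and 6.05 CPM after siRNA2. The 3 groups did not overlap, with control in the middle (log2 fold change 1.39 after siRNA1, adjusted p = 5.60e-12, and -0.67 after siRNA2, adjusted p = 2.34e-05). LINC00601 (chromosome 10, 126413869 to 126421879, minus strand) was measured at 3.45, 4.22 and 2.88 CPM, 13.5, 12.7 and 11.5 CPM and 2.24, 2.28 and 2.44 CPM. Its siRNA1 libraries lay far above, and its siRNA2 libraries just below the controls, a call that was lost without control replicate 2 (adjusted p = 0.0726). LINC01293 and LINC01291, which lie 1839 bases apart on the same strand of chromosome 2, showed the same order. LINC01293 was at 2.65, 3.23 and 3.58 CPM in controls, 7.4, 7.23 and 7.07 CPM after siRNA1 and 1.23, 1.67 and 1.16 CPM after siRNA2, and LINC01291 at 2.72 ± 0.52, 4.65 ± 1.28 and 1.4 ± 0.428 CPM. The siRNA1 call of LINC01291 was lost without siRNA1 replicate 2 (adjusted p = 0.0786). LINC00702 stood at 2.52 ± 0.0541, 4.29 ± 1.28 and 1.48 ± 0.259 CPM, with its siRNA1 call lost without siRNA1 replicate 1 (0.109) and its siRNA2 call without siRNA2 replicate 1 (0.0589). LINC00847 stood at 5.42, 8.25 and 3.9 CPM on average, with its siRNA2 call lost without control replicate 3 (0.0779) or siRNA2 replicate 3 (0.0594). LINC01116, which overlaps LINC01117 at the HOXD gene cluster, went the other way. It was measured at 18.9, 17.9 and 20.8 CPM in controls, 10.6, 11 and 8.82 CPM after siRNA1 and 21.7, 23.1 and 24.5 CPM after siRNA2. Its fall after siRNA1 passed clearly (log2 fold change -0.92, adjusted p = 5.34e-08), whereas the rise after siRNA2 (0.26, adjusted p = 0.0283) was lost without control replicate 1 or 2 or siRNA2 replicate 2 or 3 (0.0511 to 0.119).

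Promoter sequences of RefSeq (GRCh38.p14), 250 bases before to 50 after the start, were matched to 144 members. The RefSeq start lay within 100 bases of the 5′ end of the gene in the table for 76 of them and within 1000 bases for 108. Motifs were searched on both strands. TGANTCA (N, any base) served as a loose pattern for the AP-1 site bound by FOS and JUN proteins. It was present in 21 of 144 member promoters (14.6%) and in 7.71% of all 35116 promoters. Matches with any middle base were counted alike, and binding was not measured. TATAAA was found in 14.6% and 11.5%, CACGTG (E-box) in 4.17% and 7.26%, TGCTGAC (the core bound by MAF proteins) in 4.86% and 4.19%, GGAATG (bound by TEAD factors) in 9.72% and 14%, and TGACGTCA (bound by CREB and ATF factors) in 3.47% and 1.85%. AP-1 and MAF matches can overlap. Of the 21 members with an AP-1 match, 11 rose and 1 fell after siRNA1 (median log2 fold change 0.67), and of the 123 without it 28 rose and 14 fell (median 0.17), beside 25.1% and 25.4% of all tested genes. With the other motifs, 4 of 6 members rose after siRNA1 for the E-box (2 fell), 3 of 7 for the MAF core, 6 of 21 for TATAAA, 4 of 14 for GGAATG and 0 of 5 for TGACGTCA. With siRNA2, 6 rose and 3 fell of the 21 with an AP-1 match (median 0.38), and 19 rose and 16 fell of the 123 without it (median 0.09). For TATAAA, 3 rose and 6 fell after siRNA2 of the 21 with it, and 22 rose and 13 fell of the 123 without it. Among all tested genes 27.2% rose and 28.9% fell after siRNA2. Where the start lay within 1000 bases of the gene's 5′ end, 8 of 13 with the AP-1 match rose after siRNA1 and 24 of 95 without it. No test was made of these counts. The 11 members with an AP-1 match that rose after siRNA1 were LINC00339, LINC00460, LINC00513, LINC00601, LINC00702, LINC00963, LINC01615, LINC01943, LINC02009, LINC02320 and LINC02709. The siRNA1 calls of 7 of these rest on single libraries: that of LINC00513 was lost without control replicate 1 (adjusted p = 0.0577), of LINC00339 without siRNA1 replicate 2 (0.0576), of LINC02709 without control replicate 3 (0.0869), of LINC01615 without control replicate 2 (0.134) or siRNA1 replicate 3 (0.0676), and those of LINC00702, LINC00963 and LINC02320 as given above. Of the 11 risers, LINC00460, LINC00513, LINC01615 and LINC02320 had 23, 20, 19 and 16 control counts. They could enter the set only through higher counts with an siRNA. LINC01269 and LINC02029, with an AP-1 match and 20 and 26 control counts, did not pass after siRNA1. The promoters below belong to members with large changes, run 5′ to 3′ on the gene's strand, and have the matches in capitals. LINC00601 (chr10:126421830-126422129, minus strand) has TATAAA at -32 and an AP-1 match at -154 that overlaps a MAF core at -151, counted from the start. LINC00460 (chr13:106376314-106376613, plus strand, start 2087 bases inside the gene of the table) has AP-1 matches at -44 and -17. LINC00261 (chr20:22578593-22578892, minus strand) has a TATAAA match on the other strand at -74, and LINC00659 (chr20:62776807-62777106, minus strand) has TATAAA at -31 on the gene's strand. LINC02015 (chr3:177816615-177816914, plus strand), which rose with both siRNAs, has none of the 6 motifs.
LINC00601: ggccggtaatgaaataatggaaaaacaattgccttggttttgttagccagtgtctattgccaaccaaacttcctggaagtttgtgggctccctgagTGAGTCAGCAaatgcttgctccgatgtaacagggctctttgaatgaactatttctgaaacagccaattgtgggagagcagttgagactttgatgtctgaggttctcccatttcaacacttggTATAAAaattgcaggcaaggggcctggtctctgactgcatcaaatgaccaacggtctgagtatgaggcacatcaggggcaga
LINC00460: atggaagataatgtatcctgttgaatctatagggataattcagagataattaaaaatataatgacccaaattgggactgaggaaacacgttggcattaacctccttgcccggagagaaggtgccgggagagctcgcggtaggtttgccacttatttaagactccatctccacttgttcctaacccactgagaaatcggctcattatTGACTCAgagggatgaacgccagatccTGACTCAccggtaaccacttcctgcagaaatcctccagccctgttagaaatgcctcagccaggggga
LINC00261: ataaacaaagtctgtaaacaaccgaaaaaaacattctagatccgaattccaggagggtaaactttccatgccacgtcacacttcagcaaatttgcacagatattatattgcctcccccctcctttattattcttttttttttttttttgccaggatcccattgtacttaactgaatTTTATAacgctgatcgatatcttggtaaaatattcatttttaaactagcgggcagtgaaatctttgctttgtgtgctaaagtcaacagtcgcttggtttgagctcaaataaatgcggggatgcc
LINC00659: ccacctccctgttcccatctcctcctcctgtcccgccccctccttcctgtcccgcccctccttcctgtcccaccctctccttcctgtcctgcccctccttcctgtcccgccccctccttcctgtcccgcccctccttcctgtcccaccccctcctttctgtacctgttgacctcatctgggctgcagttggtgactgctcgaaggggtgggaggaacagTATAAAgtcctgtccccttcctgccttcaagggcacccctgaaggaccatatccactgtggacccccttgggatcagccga
LINC02015: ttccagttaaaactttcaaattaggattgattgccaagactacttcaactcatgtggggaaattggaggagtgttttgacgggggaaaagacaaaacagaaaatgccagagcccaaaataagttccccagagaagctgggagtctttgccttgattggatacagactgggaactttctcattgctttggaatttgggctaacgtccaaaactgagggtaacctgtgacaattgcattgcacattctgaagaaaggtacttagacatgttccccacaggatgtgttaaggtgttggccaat

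A protein-coding gene lay within 100 kb of 149 members, and the nearest one was tested for 123 of them. Of these 123 members 47 passed after siRNA1, 40 after siRNA2 and 56 between the siRNAs. Both member and neighbour passed in 26 pairs after siRNA1, 15 in the same direction and 11 in opposite ones. After siRNA2 both passed in 27, 20 in the same direction and 7 in opposite ones. Between the siRNAs both passed in 38 pairs, 18 in the same direction and 20 in opposite ones. Among all tested genes 25.1% rose and 25.4% fell after siRNA1, and 27.2% and 28.9% after siRNA2. Between the siRNAs 28.4% were higher and 32.1% lower. The pair counts were not tested. Where member and neighbour overlap (22 pairs), the numbers were 1 same and 4 opposite after siRNA1, 2 and 0 after siRNA2 and 1 and 6 between the siRNAs. Some pairs moved closely together. LINC01126 lies 604 bases from ZFP36L2, which encodes an RNA-binding protein that destabilises mRNAs, on the opposite strand. LINC01126 had 17, 18 and 21 counts in controls, 10, 10 and 9 after siRNA1 and 21, 18 and 22 after siRNA2. ZFP36L2 stood at 37.8 ± 7.84, 14 ± 0.379 and 34.1 ± 1.53 CPM. Both passed after siRNA1 alone, that of LINC01126 (adjusted p = 0.0178) being lost without siRNA1 replicate 3 (0.0795). LINC01521, 431 bases from the transcription factor gene PATZ1 on the opposite strand, stood at 1.4 ± 0.363, 1.29 ± 0.127 and 0.663 ± 0.119 CPM and PATZ1 at 31.1 ± 1.19, 31.1 ± 2.78 and 14.8 ± 1.44 CPM. The log2 fold change after siRNA2 was -1.07 for each, and the member's call was lost without control replicate 3 (adjusted p = 0.0517). LINC02870 and PWWP2B (23.4 ± 3.95, 54.5 ± 6.25 and 34.7 ± 2.96 CPM) rose together with both siRNAs. LINC01293 and POLE4, a subunit gene of DNA polymerase epsilon, moved in the same order, with POLE4 at 35.7 ± 0.512, 44.6 ± 4.73 and 30.5 ± 3.05 CPM. Other pairs diverged. FOXA2, 2363 bases from LINC00261, rose with both siRNAs (35.8 ± 1.57, 55.2 ± 2.89 and 41.3 ± 1.74 CPM), while LINC00261 fell after siRNA2. POFUT2, 152 bases from LINC00205, stood at 36.2 ± 3.4, 41.2 ± 2.2 and 63.9 ± 2.06 CPM. Both rose after siRNA2, while POFUT2 did not pass after siRNA1 (adjusted p = 0.0581). The highest level of POFUT2 was after siRNA2 and that of LINC00205 after siRNA1. Of 17 pairs of members within 100 kb of each other, 2 passed in both members after siRNA1 and 3 after siRNA2, always in the same direction, and 11 of the 17 pairs overlap on opposite strands.

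Of 33 LINC RNAs listed as studied in cancer cells, 28 were in the table and 17 are members. With siRNA1 10 of the 17 rose and 3 fell, and after siRNA2 5 rose and 3 fell (median log2 fold changes 0.41 and 0.11, beside 0.00 and -0.01 over all tested genes, of which 25.1% rose and 25.4% fell after siRNA1 and 27.2% and 28.9% after siRNA2). LINC02015, LINC01638, LINC01503 and LINC00963 rose with both, LINC00707 and LINC00665 fell with both, and LINC01116 moved in opposite directions. Of the 17, LINC02015, LINC01638, LINC00460, LINC01503 and LINC00518 had only 3, 8, 23, 29 and 29 control counts. These could enter the set only through higher counts with an siRNA, and all but LINC00518 rose after siRNA1. The number of risers is therefore a description. LINC01139 rose after siRNA1 (21.8 ± 1.56 to 29.5 ± 2.35 CPM, log2 fold change 0.44, adjusted p = 0.00025) and was at 23.5 ± 1.17 CPM after siRNA2. LINC00662 rose after siRNA1 (6.41 ± 1.24 to 8.87 ± 0.339 CPM), a call lost without control replicate 1 (adjusted p = 0.0785). LINC00511, studied in breast cancer, was at 5.17 ± 0.789, 6.9 ± 0.844 and 4.45 ± 0.361 CPM, and its siRNA1 call was lost without any of control replicates 1 and 2 and siRNA1 replicates 2 and 3 (0.0591 to 0.147). LINC00857 was at 12.6 ± 0.667, 15.5 ± 0.422 and 14.9 ± 1.18 CPM, and its siRNA1 call was lost without control replicate 1 or 2 or siRNA1 replicate 1 or 3 (0.0541 to 0.0793). LINC00115, LINC00337 and LINC00518, used in a melanoma assay, passed in no comparison. Of 8 LINC RNAs listed for a reported microprotein only LINC00467 was found, which encodes a peptide bound to ATP synthase. It stood at 8.33 ± 0.808, 9.78 ± 1.02 and 6.45 ± 0.953 CPM, and its siRNA2 call (adjusted p = 0.0276) was lost without control replicate 1 or siRNA2 replicate 2 or 3 (0.0834 to 0.152).

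The machinery that removes or processes such RNAs was read from a list of 40 genes, which holds the RNA exosome, its nuclear adaptors, the cap-binding and ARS2 proteins, Integrator and others. With siRNA1 2 of the 40 rose and 19 fell, and after siRNA2 1 rose and 28 fell (median log2 fold changes -0.16 and -0.28), where 25.1% of all tested genes rose and 25.4% fell after siRNA1 and 27.2% and 28.9% after siRNA2. The 10 genes EXOSC1 to EXOSC10 of the exosome all fell after siRNA2. After siRNA1 EXOSC3, EXOSC8, EXOSC9 and EXOSC10 fell, EXOSC5 rose (log2 fold change 0.20, adjusted p = 0.0466) and the others did not pass. DIS3, also on the list, fell after siRNA1 (adjusted p = 0.000439) and did not pass after siRNA2 (0.159). EXOSC8 stood at 93.9 ± 5.28, 72.9 ± 2.34 and 50.7 ± 7.06 CPM, and EXOSC2 at 81.1 ± 2.06, 73.3 ± 2.72 and 45.7 ± 3.53 CPM. HNRNPU, which encodes a nuclear matrix protein that binds long noncoding RNAs, fell with both (773 ± 12, 553 ± 19.6 and 590 ± 16.5 CPM). The relation of these genes to the levels of members was not tested.

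The genes whose level followed LINC00707 most closely over the 9 libraries were SLC45A3 (Pearson r = 0.993), SLC25A23 (0.991), SYNE3 (0.990), GPD2 (0.989) and AOX1 (0.989), all on log2 CPM. AOX1, which encodes aldehyde oxidase, stood at 199, 56.9 and 82.4 CPM on average in control, siRNA1 and siRNA2 libraries, and SYNE3 at 62.9, 22.2 and 29.1 CPM. For LINC00973 they were KTI12 (0.977), FP565260.1 (0.976), MCRS1 (0.975), DUS3L (0.974) and CENPBD1P1 (0.974). These correlations describe 9 libraries that fall into 3 groups, and the genes were picked as the highest among 15345.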

How the data were processed

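The members and gene lists were chosen with earlier results of these data known, and the 7-base words come from such results. The deposited table holds counts per gene and library, made by the authors, and FPKM values the authors computed from them. Trimmomatic 0.30, HISAT2 2.0.1, HTSeq 0.6.1 and DESeq are named per the submitters' processing notes. These notes name hg19, but gene coordinates in the table match GENCODE v29 on GRCh38 for 99.98% of 58394 identifiers.

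Genes passing filterByExpr (count of 10, total of 15) entered 1 joint model of the 3 groups in edgeR 4.0.16 (R 4.3.3) with TMM factors. Its robust quasi-likelihood test was two-sided, and p-values were adjusted over 15345 genes by Benjamini and Hochberg's method. Groups follow the treatment labels. Depth was 15281220 to 19759371 counts, and the common coefficient of variation 0.0641. On simulated data for siRNA1 against control (15101 genes), 70.1% of 1.5-fold, 80.6% of 2-fold and 95.5% of 4-fold changes were recovered, with 10 false calls. The changed genes were drawn from nearly all tested genes, whose median total was 3085 counts. The rates therefore do not describe the members, whose median was 268. Counting intervals are 95% exact. Matches between transcripts were found with minimap2. Alternatives were DESeq2 1.42.0, scaling by median of ratios, omitting the filter, a minimum total of 90, limma 3.58.1 on log2(FPKM + 1) and log2(FPKM + 0.1), 2 groups alone, a replicate block, each library left out, a fold minimum of 1.5 and a member minimum of 300 counts. The share without LINC00472 was added after seeing the data. Adding LINC symbols with a suffix added no member to the tables.

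Named members are the 12 with the highest mean FPKM, the 8 largest changes per direction and comparison (and with both siRNAs) among those with separated libraries, members called in opposite directions, LINC00707, LINC02015, the 2 LINC lists and those at the threshold. The text also names some chosen after their values were seen, such as LINC00847 and members with an AP-1 match. Genes below the filter (45267) and raw reads were not used here.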

Additional observations from a re-analysis of the deposited data

Results flagged for a closer look

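Each of 7 members passed the test with both siRNAs but in opposite directions, and for each the direct comparison of siRNA2 with siRNA1 also passed. The log2 fold change of siRNA2 against siRNA1 was -2.43 for LINC00601, -2.40 for LINC01293, -2.07 for LINC00261, -1.74 for LINC01291, -1.52 for LINC00702 and -1.08 for LINC00847, which were higher with siRNA1 and lower with siRNA2 than in control libraries. It was 1.19 for LINC01116, which was lower with siRNA1 and higher with siRNA2. Among all tested genes 9.93% were called in opposite directions. No group had the 4 libraries needed to look for outlying samples.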

How the results depend on the processing

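Counts of called members kept within 1.5 times of the reported ones under most settings. With members of at least 300 counts alone, 35 rose and 13 fell with siRNA1, 16 rose with siRNA2, 15 were higher with siRNA2 than with siRNA1 and 11 rose with both, since fewer RNAs are counted. With DESeq2 10 rose with both siRNAs, and with a fold minimum of 1.5, which removes smaller changes, 2 fell with both; the cause of the DESeq2 difference was not tested. Without LINC00472 the shares of all counts were 0.0698%, 0.0811% and 0.0679% in control, siRNA1 and siRNA2 libraries. Leaving out each library in turn gave 48 to 54 members higher and 15 to 24 lower with siRNA1, 27 to 32 and 22 to 30 with siRNA2, and 26 to 35 and 47 to 56 between the siRNAs. No result reversed. Over 69 named members and the alternatives, 3366 of 3542 values kept their call status, 145 lost a call and 31 gained one; values with no call in either setting count as kept, and of 1134 such values 67 differed in sign. DESeq2 shared 55 of the 75 member calls with siRNA1, 47 of 59 with siRNA2 and 67 of 88 between the siRNAs. Among named members and against control, it did not call LINC00511, LINC00857, LINC00963, LINC01126, LINC01615, LINC01943, LINC02320 or LINC02454 with siRNA1. With siRNA2 it did not call LINC00467, LINC00847, LINC01116 or LINC01503, and LINC00630 was called with neither. With limma on FPKM (both pseudocounts) the calls of LINC00467, LINC00511, LINC00630, LINC00662 and LINC00963 (siRNA1) and of LINC00702 (siRNA2) were lost.

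The replicate numbers in the labels did not pair the libraries: the correlation of deviations between libraries with the same number was -0.0508 to 0.0969, and -0.135 to 0.139 between those with different numbers. With a replicate block 56 rose and 20 fell with siRNA1, 30 rose and 31 fell with siRNA2, and 9 moved in opposite directions. Low counts limit the precision for most members.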
